A study of Homo sapiens with 12 samples.

Results

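The genes described here are 36 genes of DNA replication and of the step from G1 into S phase, measured in 2 lines of human pancreatic carcinoma that received RBM3 siRNA or a control siRNA. They were chosen by gene symbol and role: 10 genes of origin licensing, 6 of helicase activation, 4 of polymerases and primase, 5 of the sliding clamp and its loader, 2 of Okazaki fragment maturation, 2 of thymidylate supply, 4 G1/S regulators and 3 of chromatin at the fork. Of the 36 genes, 35 had 1 row each among the 63677 gene rows of the count table, and UHRF1 was not analysed here. All 35 passed the filter on low counts, which left 17862 genes for testing.

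RBM3 is a cold-inducible RNA-binding protein, and the study asked which transcripts depend on it in pancreatic cancer cells. PANC-1 and MIA PaCa-2 are established carcinoma lines of the pancreas, and each was grown for 72 h before transfection. A lipofectamine reagent delivered siRNA at 25 nM for 4.5 h, and the cells recovered overnight before they were collected. The knockdown was therefore transient, and each line served as 1 model with no independently derived clone.

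There were 12 RNA-seq libraries in 4 groups of 3. PANC-1 with RBM3 siRNA (a mixture of s11858 and s11860) comprised replicates 1, 2 and 3, and PANC-1 with negative control siRNA comprised replicates 1, 2 and 4. MIA PaCa-2 with the same RBM3 siRNA mixture comprised replicates 1, 2 and 5, and MIA PaCa-2 with negative control siRNA comprised replicates 1, 2 and 4. Values of single libraries are given in the order of these numbers. The labels do not say whether replicates were separate cultures, and the p-values therefore cover only the spread of the sequenced samples, which can be technical. Both total RNA and cytoplasmic RNA are named as the material, and RPMI1640 and DMEM as media without a line for each.

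Before S phase, the origin recognition complex, CDC6 and CDT1 load the ring of MCM2 to MCM7 onto DNA, which licenses each origin to fire once. MCM10, CDC45 and the GINS complex then turn the ring into a moving helicase, polymerase alpha with primase starts each new strand, and polymerases delta and epsilon extend it with the help of the PCNA clamp. Transcription of many of these genes rises in late G1, when cyclin E and its kinase free E2F factors from the retinoblastoma protein, and carcinoma cells of the pancreas commonly carry lesions that weaken this brake. In bulk RNA, fewer cells in late G1 and S phase and less RNA per cell cannot be told apart.

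The promoter sequences below are shown because E2F factors bind short words in the promoters of many replication genes. They are the 250 bases before the RefSeq gene start on the gene's strand (GRCh38.p14), in lower case, and capitals mark an exact match to 1 of 4 words on either strand. The words searched were TTTCCCGC, TTTGGCGC, TTTCGCGC and TTTGCCGC. MCM3 (chr6:52284743-52284992, minus strand) and E2F1 (chr20:33686386-33686635, minus strand) are shown as a ring subunit and an E2F factor. CDT1 (chr16:88803539-88803788, plus strand) and MCM6 (chr2:135876444-135876693, minus strand) differed between the lines, and in MCM6 overlapping matches on opposite strands form longer runs of capitals. CCNE1 (chr19:29811741-29811990, plus strand) is shown as a window with no such word. A word in the window and the spread of a gene went together in some genes and not in others. MCM10, CDC6 and TK1 held none and had highest to lowest ratios of 2.70, 2.63 and 2.62 among MIA PaCa-2 libraries. POLE held 1 and had a ratio of 1.24. In the other direction, E2F2, MCM3 and E2F1 held at least 1 word and had ratios of 3.01, 2.82 and 2.72. CCNE1 and GINS1 held none and had ratios of 1.26 and 1.25. The relation over all windows was not tested.
MCM3: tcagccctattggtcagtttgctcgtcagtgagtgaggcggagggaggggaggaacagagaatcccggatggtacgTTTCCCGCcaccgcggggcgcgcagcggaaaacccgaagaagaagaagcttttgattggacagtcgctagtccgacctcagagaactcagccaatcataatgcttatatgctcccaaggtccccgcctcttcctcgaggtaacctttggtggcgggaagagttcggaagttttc
E2F1: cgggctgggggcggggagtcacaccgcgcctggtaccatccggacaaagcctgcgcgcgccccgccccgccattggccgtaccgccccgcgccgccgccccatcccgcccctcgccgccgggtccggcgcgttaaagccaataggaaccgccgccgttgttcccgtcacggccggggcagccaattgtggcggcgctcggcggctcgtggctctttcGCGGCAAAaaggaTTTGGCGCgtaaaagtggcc
CDT1: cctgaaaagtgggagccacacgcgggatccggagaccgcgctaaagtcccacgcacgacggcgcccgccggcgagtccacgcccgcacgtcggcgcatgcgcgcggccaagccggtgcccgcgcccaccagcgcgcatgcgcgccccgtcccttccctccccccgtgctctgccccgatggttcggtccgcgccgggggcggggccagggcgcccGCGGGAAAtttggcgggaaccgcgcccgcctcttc
MCM6: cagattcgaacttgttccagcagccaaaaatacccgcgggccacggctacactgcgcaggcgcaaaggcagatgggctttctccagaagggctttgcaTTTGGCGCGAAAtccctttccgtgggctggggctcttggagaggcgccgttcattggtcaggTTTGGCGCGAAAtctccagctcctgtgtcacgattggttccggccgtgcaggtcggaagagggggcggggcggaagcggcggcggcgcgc
CCNE1: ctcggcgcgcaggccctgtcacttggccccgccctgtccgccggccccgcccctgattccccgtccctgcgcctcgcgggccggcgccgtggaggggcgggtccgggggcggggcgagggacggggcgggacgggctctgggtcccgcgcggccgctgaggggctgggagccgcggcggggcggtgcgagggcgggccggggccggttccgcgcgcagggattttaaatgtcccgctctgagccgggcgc

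A promoter window was matched by symbol for 31 members. Of these, 13 held at least 1 E2F word (41.9%), against 928 of the 27305 genes in the same table (3.40%). The letters CCAAT, the box bound by the factor NF-Y, were present on either strand in 18 of 31 (58.1%), against 37.0% of all genes. MCM4, MCM5, GINS4 and CCNE2 had no window. A match describes letters and not a bound site, and a window without one says nothing of the factor.

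Total counts ranged from 14217185 to 39652502 per library. RBM3 itself was at 96.5, 194.7 and 83.0 CPM (read counts scaled to a common, TMM-adjusted library size) in PANC-1 with RBM3 siRNA, against 567.2, 425.8 and 436.3 CPM in PANC-1 controls. In MIA PaCa-2 it was at 44.4, 37.4 and 61.9 CPM with RBM3 siRNA, against 249.8, 276.6 and 206.6 CPM in controls. The groups did not overlap in either line. PANC1_siRBM3 replicate 3 also held transcripts of the other line. COL1A2, a collagen gene, was at 440.7 CPM there and at most 1.67 CPM in the other PANC-1 libraries, and the summed level of 3 PANC-1 line genes (FOXA2, MFSD1 and SPART) was 105 CPM there, against 181 to 224 CPM in the others. The summed level of 3 MIA PaCa-2 line genes (COL1A2, ALDH1A1 and UCA1) was 1192 CPM in PANC1_siRBM3 replicate 3. It was 2133 to 3421 CPM in MIA PaCa-2 libraries and at most 3.94 CPM in the other PANC-1 libraries. PANC1_siRBM3 replicate 3 was kept in the main fit, and values without it are given beside many of the results. Keratins KRT8, KRT18 and KRT19 were abundant in both lines, while EPCAM and KRT7 stayed under 1 CPM in MIA PaCa-2. None of 5 acinar and none of 4 endocrine genes reached 1 CPM in any library, INS, GCG and the endothelial gene PECAM1 were at 0 throughout, and 2 of 4 fibroblast and 2 of 4 immune genes reached 1 CPM. Of 3 endothelial genes, CDH5 reached 1 CPM, at 7.57 CPM in MIAPaCa2_control replicate 1 and at most 0.619 CPM in the other libraries. The summed immune genes ran 1.15 to 3.19 CPM in PANC-1 and 10.1 to 22.0 CPM in MIA PaCa-2, and the summed fibroblast genes 2.08 to 22.4 CPM in PANC-1 and 22.1 to 78.7 CPM in MIA PaCa-2. The part of these markers in the results was not tested.

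Levels can be compared between genes only per length, here as mean CPM per kb of merged exon. In PANC-1 controls the highest members were PCNA, the sliding clamp, at 135.4 CPM per kb, TYMS, which makes thymidylate, at 106.8 CPM per kb, and MCM7, a subunit of the helicase ring, at 95.9 CPM per kb. In MIA PaCa-2 controls the same genes led, MCM7 at 120.6, TYMS at 116.3 and PCNA at 102.0 CPM per kb. The lowest after FEN1 in PANC-1 controls were E2F2 at 1.89 and GINS3 at 2.09 CPM per kb, and in MIA PaCa-2 controls CCNE2 at 1.07 and E2F2 at 1.16 CPM per kb. Reads of PCNA, TYMS, RFC3, RFC5 and FEN1 could be split with named pseudogenes. The exons of TYMS share 967 bp with the antisense gene ENOSF1 in GENCODE v29, and those of CCNE2 share 1629 bp with INTS8, so their levels could include reads of the partner. The same holds for GINS4 (1159 bp), MCM2 (1113 bp) and GINS3 (558 bp), each with an antisense gene. POLD1 shares 426 bp and PRIM1 362 bp with a gene on the same strand, and other members also share exon bases.

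FEN1, the nuclease that trims Okazaki fragments, was nearly absent from the table. It was at 0.970, 0.744 and 0.866 CPM in PANC-1 with RBM3 siRNA and 0.813, 1.04 and 0.368 CPM in PANC-1 controls. The MIA PaCa-2 values were 0.263, 0.357 and 0.818 CPM with RBM3 siRNA and 0.476, 0.524 and 0.126 CPM in controls. These values stand for 2 to 32 counts per library. FEN1 exons overlap those of FADS2 and TMEM258 in GENCODE v29 (49 and 166 bp of 2478 bp), and whether counting lowered its level was not tested. LIG1, the ligase that seals the same fragments, was at 44.5, 44.5 and 52.4 CPM in PANC-1 controls and 61.8, 76.6 and 40.7 CPM in MIA PaCa-2 controls.

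No member passed the threshold of an adjusted p under 0.05 for RBM3 siRNA in either line. In PANC-1 edgeR called 0 of 35 members, against 0.00% of all genes tested, and in MIA PaCa-2 it called 0 of 35, against 0.0112%. In the fit of all libraries no member had an unadjusted p under 0.05 in either line, where 4.12% of all genes did in PANC-1 and 2.94% in MIA PaCa-2. DESeq2 also called 0 members in both, against 0.0168% of all genes in PANC-1 and 0.118% in MIA PaCa-2, and limma-voom called 0, against 0.00% in PANC-1 and 0.00560% in MIA PaCa-2. RBM3 passed in MIA PaCa-2, with a log2 fold change of -2.35 (SE 0.31) and an edgeR adjusted p of 0.0426. That call held in 2 of 12 removals of a library, those of PANC1_siRBM3 replicates 2 and 3, with an adjusted p between 0.00120 and 0.548 (without MIAPaCa2_siRBM3 replicate 1) and a log2 fold change between -2.59 and -2.20. In PANC-1 its log2 fold change was -1.93 (SE 0.30), and edgeR gave an adjusted p of 0.516, where that of DESeq2 was 1.75e-05. In edgeR it passed there in 1 of 12 removals, that of PANC1_siRBM3 replicate 2, at -2.42 (edgeR adjusted p 0.00515).

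The median log2 fold change of the 35 members was -0.03 in PANC-1, against 0.03 over all genes tested, and -0.09 in MIA PaCa-2, against -0.00 over all genes. In PANC-1 19 members had a negative value (54.3%), against 45.2% of all genes. In MIA PaCa-2 24 had a negative value (68.6%), against 50.6% of all genes. The MIA PaCa-2 median turned on single libraries, and ran between -0.32 without MIAPaCa2_siRBM3 replicate 5 and 0.05 without MIAPaCa2_control replicate 1. The PANC-1 median also turned on single libraries, and was 0.05 without PANC1_siRBM3 replicate 2. Without PANC1_siRBM3 replicate 3 the PANC-1 median was -0.15, 10 members changed sign and 29 were negative (82.9%), against 49.2% of all genes. In that fit edgeR again called 0 members, against 0.00% of all genes in PANC-1, 0.0109% in MIA PaCa-2 and 0.00543% for the mean of both.

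How large a change these libraries could have hidden is given by the approximate 95% interval of each fold, which uses the 8 residual degrees of freedom. All 35 intervals covered 1 in both lines. In PANC-1 29 and in MIA PaCa-2 27 lay within a 2-fold change in either direction. The narrowest was that of CCNE1, 0.785 to 1.31 in PANC-1 and 0.830 to 1.39 in MIA PaCa-2. Apart from FEN1, the widest was that of GINS4, 0.949 to 3.83 in PANC-1 and 0.366 to 1.45 in MIA PaCa-2. These intervals are from the fit with PANC1_siRBM3 replicate 3, the library that also held MIA PaCa-2 transcripts. Without it the SE of the GINS4 log2 fold change was smaller, 0.24 in PANC-1 and 0.22 in MIA PaCa-2. For the mean response over both lines edgeR called 0 of 35 members, against 0.00560% of all genes. None had an unadjusted p under 0.05, as 4.13% of all genes did. DESeq2 called 0, against 0.185% of all genes, and limma-voom 0, against 0.0168%, and 34 intervals lay within a 2-fold change.

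**Figure D1:**
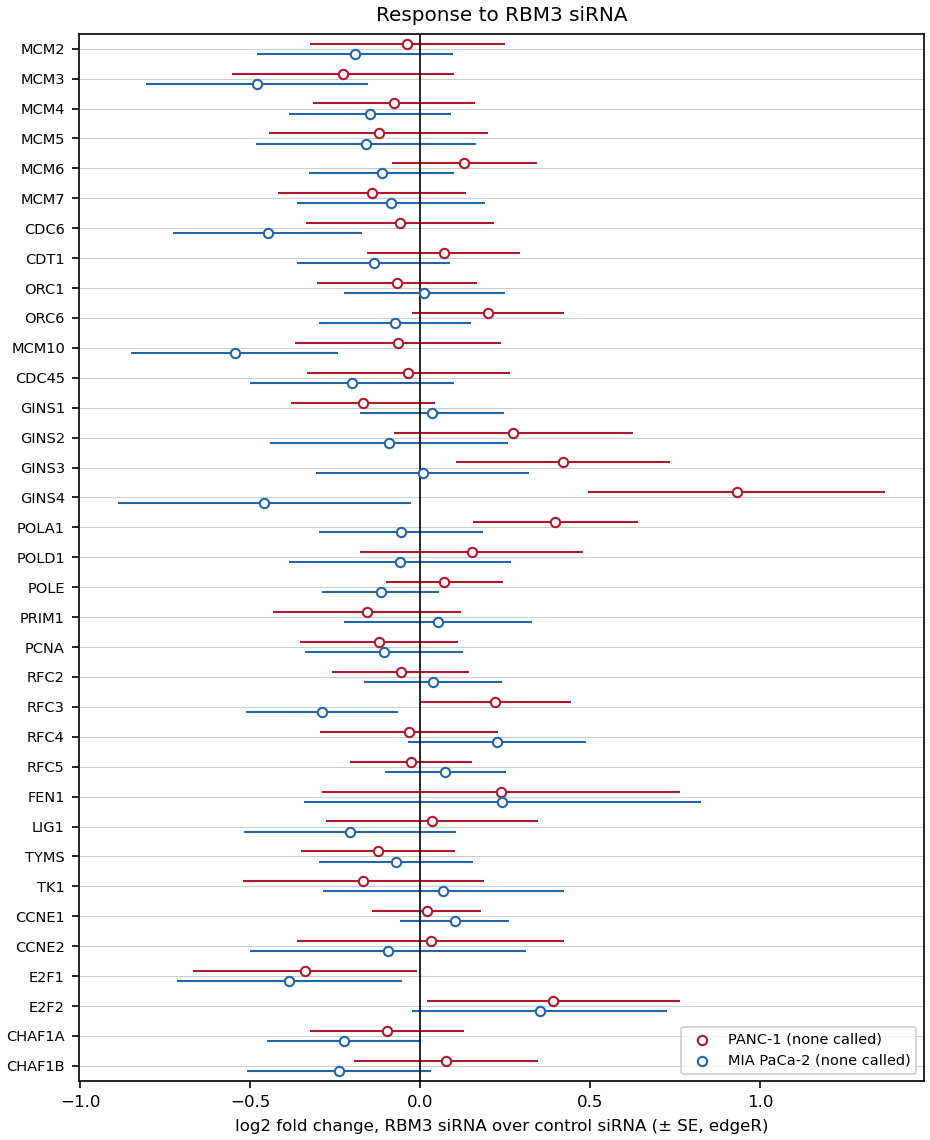
Log2 fold change of each of the 35 members under RBM3 siRNA over control siRNA (x axis), in PANC-1 (red, upper point of each pair) and MIA PaCa-2 (blue, lower point), with bars of ± 1 approximate SE from edgeR (n = 3 libraries a group). All points are open because 0 of 35 members were called in either line, and GINS4 in PANC-1 lies farthest to the right at 0.93.

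Among the origin licensing genes, MCM3 and CDC6 had the smallest p-values in MIA PaCa-2. MCM3, a subunit of the helicase ring, was at 159.9, 155.5 and 168.0 CPM in PANC-1 with RBM3 siRNA and 163.0, 211.1 and 191.9 CPM in PANC-1 controls. MIA PaCa-2 cells had 69.9, 84.5 and 164.2 CPM with RBM3 siRNA and 197.5, 163.6 and 82.4 CPM in controls. The MIA PaCa-2 groups overlapped widely, with siRNA replicate 5 level with control replicate 2, and control replicate 4 level with siRNA replicate 2. Its log2 fold change was -0.23 (SE 0.33) in PANC-1 and -0.48 (SE 0.33) in MIA PaCa-2, with edgeR adjusted p-values of 0.9997 and 1. With 1 library left out the MIA PaCa-2 value lay between -0.95 (without siRNA replicate 5) and -0.20 (without control replicate 1).

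CDC6, the ATPase that helps to load the ring, was at 53.1, 61.3 and 68.0 CPM in PANC-1 with RBM3 siRNA and 56.9, 69.6 and 63.5 CPM in PANC-1 controls. Among MIA PaCa-2 libraries the values were 31.8, 40.3 and 51.2 CPM with RBM3 siRNA and 83.8, 49.4 and 34.6 CPM in controls. Control replicate 1 alone stood above the other 5 MIA PaCa-2 libraries. The MIA PaCa-2 log2 fold change was -0.45 (SE 0.28) at an edgeR adjusted p of 1, and -0.02 without that control.

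MCM2, another subunit of the ring, was high and low in the same MIA PaCa-2 libraries as MCM3. It was at 201.2, 197.3 and 246.0 CPM in PANC-1 with RBM3 siRNA and 211.0, 237.4 and 213.3 CPM in PANC-1 controls, which overlapped. For MIA PaCa-2 the levels were 133.5, 160.9 and 267.2 CPM with RBM3 siRNA and 275.6, 240.0 and 125.4 CPM in controls. There siRNA replicate 5 and control replicates 1 and 2 were high, and siRNA replicates 1 and 2 and control replicate 4 were low. The summed level of MCM2 to MCM7 was 1178, 1090.0 and 1353 CPM in PANC-1 with RBM3 siRNA and 1185, 1384 and 1309 CPM in PANC-1 controls. In MIA PaCa-2 the same sum was 891, 1109.8 and 1704 CPM with RBM3 siRNA and 1561, 1681 and 889.8 CPM in controls. The remaining licensing genes, MCM4 to MCM7, CDT1, ORC1 and ORC6, had log2 fold changes between -0.14 (MCM7) and 0.20 (ORC6) in PANC-1, and between -0.16 (MCM5) and 0.01 (ORC1) in MIA PaCa-2. Without PANC1_siRBM3 replicate 3 all 7 were negative in PANC-1, between -0.25 (MCM7) and -0.02 (ORC6).

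Of the helicase activation genes, MCM10, which helps the assembled helicase to start, had the smallest p in MIA PaCa-2. It was at 32.7, 37.5 and 35.7 CPM in PANC-1 with RBM3 siRNA and 31.6, 43.2 and 36.1 CPM in PANC-1 controls. In MIA PaCa-2 it was at 23.0, 22.0 and 30.4 CPM with RBM3 siRNA and 59.5, 26.7 and 23.5 CPM in controls. Again control replicate 1 stood above the other MIA PaCa-2 libraries, which overlapped. The MIA PaCa-2 log2 fold change was -0.55 (SE 0.30), the unadjusted p was 0.0977 and the edgeR adjusted p was 1, and it was 0.02 without control replicate 1.

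GINS4, a subunit of the GINS complex that bridges helicase and polymerase, had the smallest p in PANC-1. It was at 18.3, 14.3 and 61.2 CPM in PANC-1 with RBM3 siRNA and 14.6, 16.9 and 17.7 CPM in PANC-1 controls. The MIA PaCa-2 values were 31.2, 33.8 and 46.9 CPM with RBM3 siRNA and 58.1, 56.4 and 39.0 CPM in controls. Only siRNA replicate 3 stood out in PANC-1, the library that also held MIA PaCa-2 transcripts, and its GINS4 level was above that of every MIA PaCa-2 library as well. The PANC-1 log2 fold change was 0.93 (SE 0.44), the unadjusted p was 0.0533 and the edgeR adjusted p was 0.9997, and -0.03 without that library. In MIA PaCa-2 it was -0.46 (SE 0.43, edgeR adjusted p 1). Without PANC1_siRBM3 replicate 3 the MIA PaCa-2 value was -0.47 (SE 0.22), at an unadjusted edgeR p of 0.04999, and did not pass after adjustment.

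GINS3, a further subunit, was at 11.97, 12.5 and 18.5 CPM in PANC-1 with RBM3 siRNA and 12.8, 8.25 and 10.9 CPM in PANC-1 controls. MIA PaCa-2 cells had 17.3, 14.7 and 21.5 CPM with RBM3 siRNA and 26.3, 15.1 and 11.7 CPM in controls. The groups overlapped in both lines. Its log2 fold change was 0.42 (SE 0.32) in PANC-1 (edgeR adjusted p 0.9997), and 0.18 without PANC1_siRBM3 replicate 3. CDC45, GINS1 and GINS2 had log2 fold changes of -0.03, -0.17 and 0.27 in PANC-1, and of -0.20, 0.04 and -0.09 in MIA PaCa-2. GINS2 was at 40.6 CPM in PANC1_siRBM3 replicate 3, and without that library the PANC-1 values of these 3 were -0.16, -0.16 and -0.13.

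POLA1, the catalytic subunit of polymerase alpha, was at 38.1, 35.9 and 61.4 CPM in PANC-1 with RBM3 siRNA and 28.3, 37.6 and 37.0 CPM in PANC-1 controls. Among MIA PaCa-2 libraries the values were 64.8, 75.4 and 78.0 CPM with RBM3 siRNA and 94.8, 76.3 and 55.4 CPM in controls. In PANC-1 siRNA replicate 3 stood above the other 5 libraries, which lay between 28.3 and 38.1 CPM. Its PANC-1 log2 fold change was 0.40 (SE 0.24, edgeR adjusted p 0.9997), and 0.10 without replicate 3. POLD1 and POLE, the catalytic subunits of polymerases delta and epsilon, and PRIM1, the catalytic subunit of primase, had log2 fold changes between -0.16 and 0.15 in PANC-1, and between -0.12 and 0.05 in MIA PaCa-2. Without replicate 3 the PANC-1 values were -0.18 for POLD1, -0.04 for POLE and -0.16 for PRIM1, and -0.13 for LIG1, against 0.03 with it.

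PCNA was the only member whose libraries did not overlap in PANC-1. It was at 190.2, 174.6 and 184.4 CPM in PANC-1 with RBM3 siRNA and 190.7, 201.1 and 205.8 CPM in PANC-1 controls, and the siRNA replicate 1 and control replicate 1 values differed by under 1 CPM. For MIA PaCa-2 the levels were 108.3, 130.3 and 179.9 CPM with RBM3 siRNA and 176.2, 177.9 and 95.8 CPM in controls, which overlapped. Over all genes tested, 2.77% had all PANC-1 siRNA libraries below all controls and 3.75% above them, so 1 of 35 members was near the background. The PANC-1 log2 fold change of PCNA was -0.12 (SE 0.23) at an edgeR adjusted p of 0.9997. No member was free of overlap in MIA PaCa-2, where 3.63% of all genes lay below and 4.41% above the controls.

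RFC3, a subunit of the clamp loader, was at 35.5, 43.8 and 58.4 CPM in PANC-1 with RBM3 siRNA and 40.2, 39.6 and 38.4 CPM in PANC-1 controls. In MIA PaCa-2 it was at 65.1, 65.8 and 61.9 CPM with RBM3 siRNA and 104.5, 73.2 and 57.5 CPM in controls. The siRNA libraries of MIA PaCa-2 lay close together, inside the spread of the controls. Its log2 fold change was 0.22 (SE 0.22) in PANC-1 and -0.29 (SE 0.22) in MIA PaCa-2, with edgeR adjusted p-values of 0.9997 and 1. It was -0.0042 in PANC-1 without siRNA replicate 3, and -0.0076 in MIA PaCa-2 without control replicate 1. RFC2, RFC4 and RFC5 lay between -0.06 and -0.03 on the log2 scale in PANC-1 and between 0.04 and 0.23 in MIA PaCa-2. Their PANC-1 values without siRNA replicate 3 were -0.14, -0.12 and -0.15.

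TK1 encodes thymidine kinase. It was at 146.4, 83.1 and 154.6 CPM in PANC-1 with RBM3 siRNA and 114.0, 152.6 and 164.7 CPM in PANC-1 controls. The MIA PaCa-2 values were 80.2, 119.7 and 210.2 CPM with RBM3 siRNA and 128.0, 177.2 and 85.8 CPM in controls. The groups overlapped in both lines, and siRNA replicate 2 was lowest in PANC-1. Its log2 fold change was -0.17 (SE 0.35) in PANC-1 and 0.07 (SE 0.35) in MIA PaCa-2. TYMS was at -0.12 (SE 0.23) and -0.07 (SE 0.23) on the same scale in PANC-1 and MIA PaCa-2. With PANC1_siRBM3 replicate 3 left out the PANC-1 values were -0.35 for TK1 and -0.24 for TYMS.

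Among the G1/S regulators, E2F1, an activating E2F factor, was at 75.0, 57.1 and 56.8 CPM in PANC-1 with RBM3 siRNA and 61.2, 86.1 and 91.9 CPM in PANC-1 controls. MIA PaCa-2 cells had 18.0, 26.9 and 43.3 CPM with RBM3 siRNA and 49.1, 43.3 and 22.5 CPM in controls. The groups overlapped in both lines. E2F1 had the smallest p of the members for the mean response, which was -0.36 (SE 0.23) on the log2 scale (unadjusted p 0.146 and adjusted p 0.9999 in edgeR). Its value was negative in each line, -0.34 in PANC-1 and -0.38 in MIA PaCa-2.

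E2F2, a related activator, was at 16.1, 9.33 and 15.1 CPM in PANC-1 with RBM3 siRNA and 7.40, 13.5 and 10.1 CPM in PANC-1 controls. Among MIA PaCa-2 libraries the values were 7.11, 6.93 and 10.5 CPM with RBM3 siRNA and 9.61, 5.89 and 3.47 CPM in controls. Its mean response was 0.37 (SE 0.26), of opposite sign to that of E2F1, with an edgeR adjusted p of 0.9999. CCNE1, which encodes cyclin E1, was at 29.5, 32.5 and 30.9 CPM in PANC-1 with RBM3 siRNA and 33.5, 31.6 and 26.6 CPM in PANC-1 controls. For MIA PaCa-2 the levels were 38.1, 34.5 and 33.4 CPM with RBM3 siRNA and 30.3, 32.0 and 36.6 CPM in controls. All 12 libraries lay between 26.6 and 38.1 CPM.

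CHAF1A and CHAF1B are subunits of the chromatin assembly factor that deposits histones behind the fork. CHAF1A was at 50.4, 48.9 and 62.1 CPM in PANC-1 with RBM3 siRNA and 53.7, 61.2 and 57.8 CPM in PANC-1 controls. In MIA PaCa-2 it was at 39.2, 47.4 and 56.9 CPM with RBM3 siRNA and 74.8, 53.7 and 38.8 CPM in controls. The groups overlapped in both lines, and the mean response was -0.16 (SE 0.16, edgeR adjusted p 0.9999). CHAF1B had log2 fold changes of 0.08 (SE 0.27) in PANC-1 and -0.24 (SE 0.27) in MIA PaCa-2. In PANC-1 the values were -0.23 for CHAF1A and -0.23 for CHAF1B without siRNA replicate 3.

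Whether the lines responded differently was tested as the PANC-1 response minus the MIA PaCa-2 response. edgeR called 0 of 35 members, against 0.00% of all genes, DESeq2 called 0, against 0.0168%, and limma-voom 0, against 0.00%. The difference was positive for 23 members, as it was for 57.6% of all genes, and without PANC1_siRBM3 replicate 3 it was negative for 18 (51.4%), against 48.4% of all genes. GINS4 alone had an unadjusted p under 0.05, as did 2.98% of all genes. Its difference was 1.39 (SE 0.61) on the log2 scale, with an unadjusted p of 0.0418 and an adjusted p of 0.9999 in edgeR, and 0.44 without PANC1_siRBM3 replicate 3. RFC3 followed at 0.51 (SE 0.32), POLA1 at 0.45 (SE 0.34), MCM10 at 0.48 (SE 0.43), CDC6 at 0.39 (SE 0.39) and GINS3 at 0.41 (SE 0.44), and the edgeR adjusted p was 0.9999 for all 5. Without PANC1_siRBM3 replicate 3 the difference was 0.29 for RFC3, 0.16 for POLA1 and 0.19 for GINS3. Without MIAPaCa2_control replicate 1, the library with CDH5, it was -0.088 for MCM10, -0.044 for CDC6 and -0.013 for GINS3. That library also had the highest total count, 39652502. Among MIA PaCa-2 libraries it had the lowest summed MIA PaCa-2 line genes, at 2133 CPM, and the highest summed immune genes, at 22.0 CPM. The part of its CDH5 signal or of these other traits was not tested. The 95% interval of this difference lay within a 2-fold change for 13 of 35 members, so it was known less well than either response.

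The 6 libraries of a line, over both siRNAs, lay far apart for many members. The ratio of the highest to the lowest of the 6 libraries of a line had a median over 34 members (without FEN1) of 1.60 in PANC-1, with a range of 1.18 to 4.28, and of 1.90 in MIA PaCa-2, with a range of 1.24 to 3.01. It reached 2 for 8 members in PANC-1 and for 14 in MIA PaCa-2. Of those 8, POLD1, POLA1, GINS2, GINS3, GINS4 and CHAF1B were highest in PANC1_siRBM3 replicate 3, the library that also held MIA PaCa-2 transcripts. CCNE2 was lowest in that library, and only for E2F2 was it at neither end. Ratios without that library were not computed. In PANC-1 siRNA replicate 2 was the lowest library for 21 of 35 members, against 21.5% of all genes, and siRNA replicate 3 was the highest for 15 of 35, against 28.8%. In MIA PaCa-2 control replicate 4 was the lowest for 21 of 35 members, against 14.1% of all genes, and siRNA replicate 1 the lowest for 11, against 19.3%. Control replicate 1 was the highest for 19, against 20.9% of all genes, and siRNA replicate 5 for 10, against 20.1%. These are counts over genes of the same libraries and are descriptions.

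**Figure D2:**
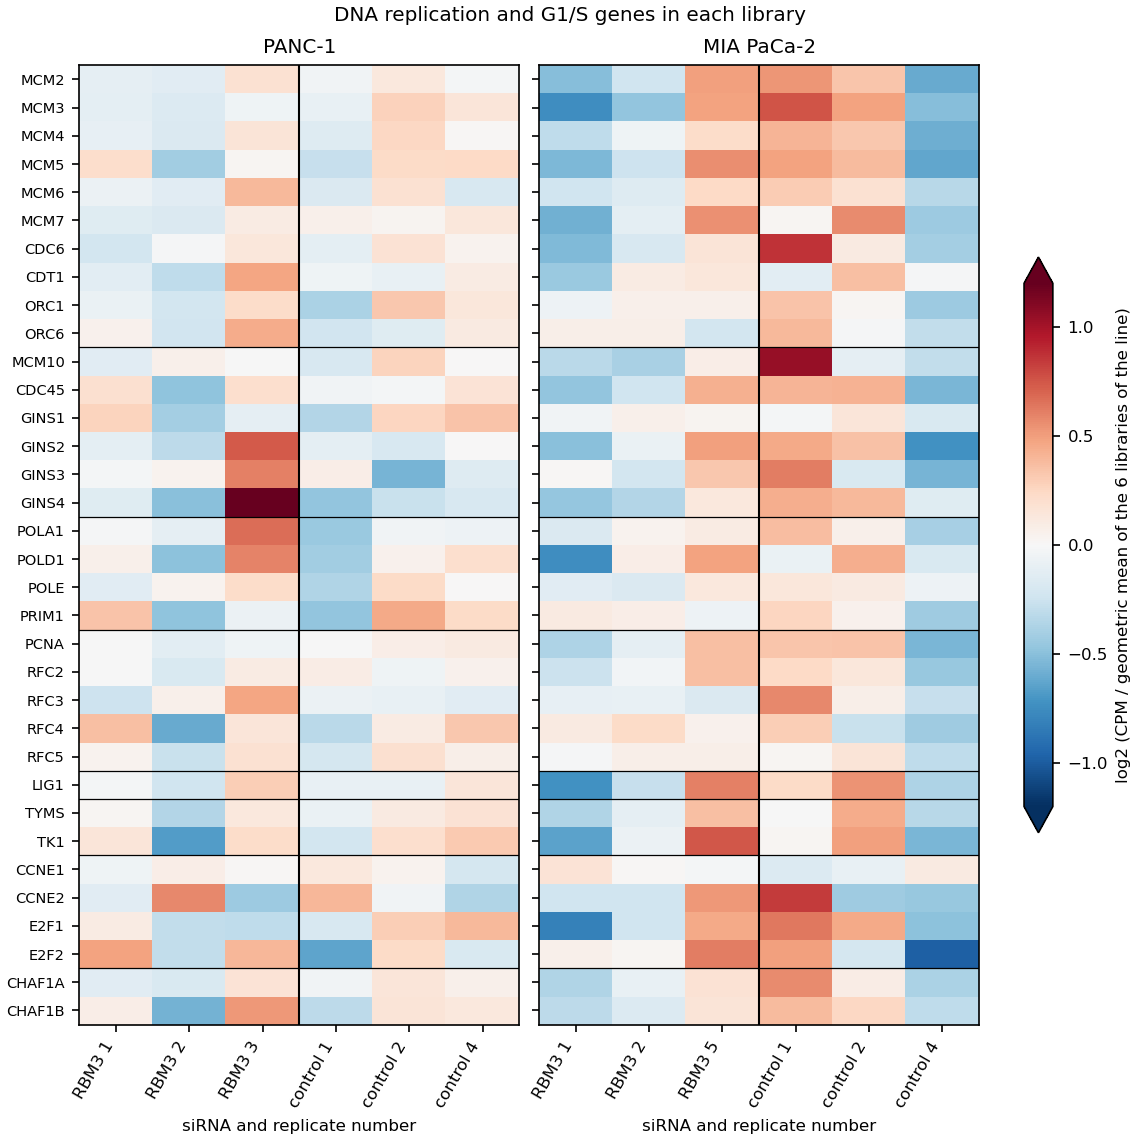
Log2 of the CPM of each member over the geometric mean of the 6 libraries of its line (colour, blue below and red above), for 34 members in rows by role (FEN1 left out) and libraries in columns, RBM3 siRNA left of the line and control siRNA right of it, PANC-1 in the left panel and MIA PaCa-2 in the right. In MIA PaCa-2 siRNA replicate 5 and control replicates 1 and 2 are red for most rows, and in PANC-1 the darkest cell is GINS4 in siRNA replicate 3 at 61.2 CPM.

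The summed level of the 35 members was high and low in the same libraries. It was 2843, 2471 and 3251 CPM in PANC-1 with RBM3 siRNA and 2664, 3148 and 3103 CPM in PANC-1 controls. In MIA PaCa-2 it was 2339.9, 2822 and 3873 CPM with RBM3 siRNA and 3684, 3828 and 2322 CPM in controls. The groups overlapped in both lines, and the spread within a MIA PaCa-2 group exceeded the difference between the group means of 3012 ± 784 CPM with RBM3 siRNA and 3278 ± 831 CPM in controls (SD, n = 3).

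Genes of mitosis did not follow the members in every library. The summed level of 16 mitosis genes, among them MKI67, TOP2A and CCNB1, was 3856, 2634 and 3524 CPM in PANC-1 with RBM3 siRNA and 2604, 3672 and 3802 CPM in PANC-1 controls. The MIA PaCa-2 sums were 3855, 4112 and 3893 CPM with RBM3 siRNA and 3092, 4189.6 and 3215 CPM in controls. MIA PaCa-2 siRNA replicate 1 was thus among the lowest for the members and not for mitosis genes, while control replicate 1 was high for the members and lowest for mitosis genes. Of the 16 mitosis genes, 7 had a positive log2 fold change in PANC-1 and 15 in MIA PaCa-2, where the median was 0.16. Over all genes tested, 9796 of 17862 were positive in PANC-1 and 8674 in MIA PaCa-2, where the median was -0.0039. edgeR, DESeq2 and limma-voom called 0 of the 16 in either line. At an unadjusted p under 0.05 in edgeR there were 0 in PANC-1 and 1 in MIA PaCa-2, against 4.12% and 2.94% of all genes. KIF23, a kinesin of cytokinesis, had the smallest p in MIA PaCa-2, with a log2 fold change of 0.35 (SE 0.16, edgeR adjusted p 1). MIA PaCa-2 cells held KIF23 at 111.1, 105.7 and 86.2 CPM with RBM3 siRNA and 80.1, 85.7 and 71.7 CPM in controls. All siRNA libraries lay above all controls there for 1 of the 16 mitosis genes, KIF23, as they did for 4.41% of all genes.

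**Figure D3:**
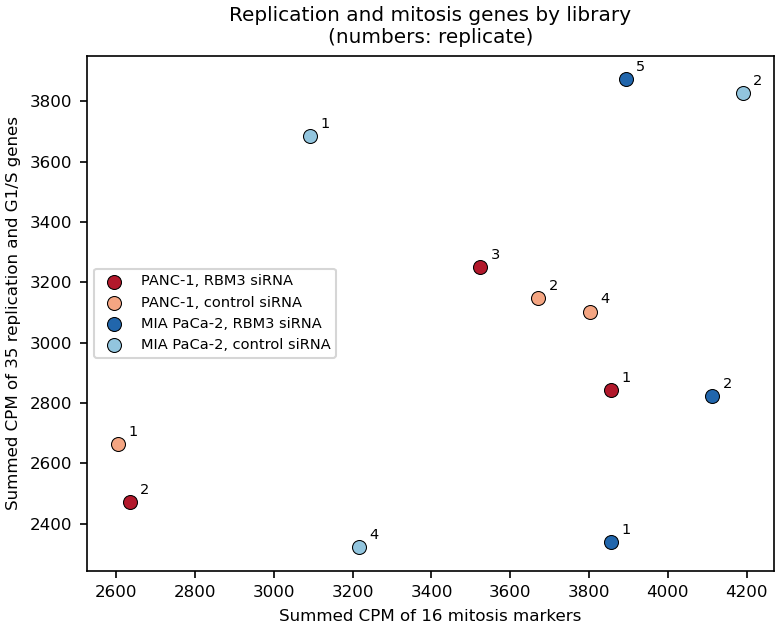
Summed CPM of the 35 members (y axis) against summed CPM of 16 mitosis genes (x axis), 1 point per library with its replicate number. MIA PaCa-2 siRNA replicate 1 and control replicate 4 lie lowest of all at 2339.9 and 2322 CPM of members, and PANC-1 siRNA replicate 2 and control replicate 1 lie farthest left at 2634 and 2604 CPM of mitosis genes.

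In the same pair of PANC-1 libraries, siRNA replicate 2 and control replicate 1, CCNE2 was at its highest. CCNE2, which encodes cyclin E2, was at 16.9, 27.8 and 13.8 CPM in PANC-1 with RBM3 siRNA and 24.6, 18.1 and 14.5 CPM in PANC-1 controls. CDKN1A, which encodes the CDK inhibitor p21, was at 72.4, 118.9 and 65.6 CPM with RBM3 siRNA and 128.6, 71.9 and 59.5 CPM in controls, and E2F7, a repressing E2F factor, at 31.8, 43.4 and 20.3 CPM with RBM3 siRNA and 35.6, 26.1 and 29.7 CPM in controls. All 3 genes were thus highest in siRNA replicate 2 or control replicate 1, while the summed members were lowest there. These libraries were singled out after their values were seen, and no test was made of them.

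Other genes of the same pathways also did not respond past the threshold. Of 44 further replication genes, edgeR called 0 in PANC-1 and 0 in MIA PaCa-2, with 0 and 1 at an unadjusted p under 0.05, and of 18 further G1/S genes it called 0 in both, with 0 and 1. DESeq2 and limma-voom also called none of them. Of all genes, 4.12% in PANC-1 and 2.94% in MIA PaCa-2 had an unadjusted p under 0.05 in edgeR. PRIM2, the large subunit of primase, had a mean response of -0.40 (SE 0.16) and CDK2, the kinase partner of cyclin E, one of -0.38 (SE 0.14), and both had edgeR adjusted p-values of 0.9999. CDK2 was at 80.1, 58.3 and 79.8 CPM in PANC-1 with RBM3 siRNA and 64.4, 105.2 and 96.3 CPM in PANC-1 controls. The MIA PaCa-2 values were 50.6, 58.4 and 61.5 CPM with RBM3 siRNA and 71.8, 89.4 and 74.6 CPM in controls. There all siRNA libraries lay below all controls, as they did for 3.63% of all genes. RBL2, the pocket protein p130, was at 0.58 (SE 0.28) in PANC-1, and at 0.08 without PANC1_siRBM3 replicate 3. Next by p in PANC-1 were RFC1, the large clamp loader subunit, at 0.41 (SE 0.21), CDKN1B, which encodes the CDK inhibitor p27, at 0.44 (SE 0.24), and FBXW7, part of the ligase that marks cyclin E for degradation, at 0.29 (SE 0.20). RFC1 was at 0.22 and CDKN1B at 0.15 without PANC1_siRBM3 replicate 3. In MIA PaCa-2 PRIM2 was at -0.54 (SE 0.22), CDK2 at -0.47 (SE 0.20) and GMNN, the inhibitor of CDT1, at 0.32 (SE 0.18). The mean response was 0.30 for RFC1 and 0.39 for RBL2, and without that library 0.20 and 0.15. The difference of the responses was 0.57 (SE 0.36) for SKP2, -0.32 (SE 0.22) for KIF23, -0.34 (SE 0.25) for GMNN and -0.46 (SE 0.36) for E2F5, and that of SKP2 was 0.12 without the same library and that of E2F5 -0.23 without MIAPaCa2_siRBM3 replicate 1. None of these values passed.

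The lines differed in a minority of the members. The labels name media without a line for each, so a difference between lines and one between media cannot be told apart. Under control siRNA edgeR called 11 of 35 members (31.4%), against 50.8% of all genes tested. In PANC-1 relative to MIA PaCa-2, 2 of them were higher and 9 lower, against 26.0% and 24.8% of all genes. DESeq2 called 11 members (52.1% of all genes) and limma-voom 11 (50.1%). The median log2 difference of the 35 members was -0.11, against 0.00 over all genes, and it ran between -0.24 without MIAPaCa2_control replicate 4 and 0.07 without MIAPaCa2_control replicate 1. Under RBM3 siRNA edgeR called 4 members (11.4%), against 43.6% of all genes. These were 2 higher and 2 lower in PANC-1, against 24.2% and 19.3% of all genes, and DESeq2 called 5 (46.4% of all genes) and limma-voom 4 (46.8%). Those libraries are separate from the controls but share the estimate of spread. All 4 were also among the 11, which is 36.4% of the control calls, where over all genes 76.5% of the control calls were called again. Each of the 11 had the same sign under RBM3 siRNA.

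Without PANC1_siRBM3 replicate 3, the library with MIA PaCa-2 transcripts, 9 members were called under RBM3 siRNA (2 higher and 7 lower), against 50.2% of all genes, and all 9 were among the 11 of the control comparison. That comparison had 11 calls in the fit without this library, against 51.6% of all genes. The count under control siRNA was 7 without MIAPaCa2_control replicate 2. Under RBM3 siRNA it was 2 without MIAPaCa2_siRBM3 replicate 2 and 2 without PANC1_siRBM3 replicate 1. Under control siRNA 3 members had all PANC-1 libraries above all MIA PaCa-2 libraries and 9 had all below, where 31.4% and 30.1% of all genes did. Under RBM3 siRNA 4 members had all PANC-1 libraries above and 6 had all below, where 28.5% and 25.9% of all genes did.

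CCNE2 showed the largest difference of any member. With RBM3 siRNA it was at 16.9, 27.8 and 13.8 CPM in PANC-1, against 3.65, 3.66 and 6.19 CPM in MIA PaCa-2. The control siRNA libraries had 24.6, 18.1 and 14.5 CPM in PANC-1, against 7.73, 3.21 and 3.15 CPM in MIA PaCa-2. No PANC-1 library overlapped any MIA PaCa-2 library. The log2 difference was 2.12 (SE 0.41) under RBM3 siRNA and 2.00 (SE 0.41) under control siRNA, with edgeR adjusted p-values of 0.00171 and 0.00171. It passed in all 12 removals of a library under either siRNA, and the control siRNA value was 2.61 without MIAPaCa2_control replicate 1. CCNE2 exons share 1629 bp of 4397 bp with INTS8, and the part of INTS8 reads in this difference was not tested. CCNE1, the other cyclin E gene, had a log2 difference of -0.11 (SE 0.16) under control siRNA (fold interval 0.717 to 1.20), with an edgeR adjusted p of 0.593.

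E2F1 was the other member that was higher in PANC-1. Under RBM3 siRNA its mean was 63.0 ± 10.5 CPM in PANC-1 and 29.4 ± 12.8 CPM in MIA PaCa-2. Under control siRNA it was 79.7 ± 16.3 CPM (SD, n = 3) in PANC-1 and 38.3 ± 14.0 CPM in MIA PaCa-2. The log2 difference was 1.10 (SE 0.33) under RBM3 siRNA and 1.06 (SE 0.33) under control siRNA, with edgeR adjusted p-values of 0.0191 and 0.0188. E2F1 passed in 9 of 12 removals under either siRNA. E2F2 had a log2 difference of 0.69 (SE 0.38) under control siRNA, which did not pass (edgeR adjusted p 0.145).

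Of the licensing genes, CDT1, which brings the ring to the origin, was lower in PANC-1. Its level with RBM3 siRNA was 47.8, 42.4 and 72.5 CPM in PANC-1, against 81.6, 119.2 and 122.0 CPM in MIA PaCa-2. It was at 50.2, 49.0 and 55.8 CPM in PANC-1 controls, against 102.0, 143.1 and 110.0 CPM in MIA PaCa-2 controls. Every PANC-1 library lay below every MIA PaCa-2 library. The log2 difference was -0.99 (SE 0.23) under RBM3 siRNA and -1.19 (SE 0.23) under control siRNA, with edgeR adjusted p-values of 0.00467 and 0.00107. Without PANC1_siRBM3 replicate 3 the RBM3 siRNA value was -1.26 (edgeR adjusted p 3.21e-04).

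MCM6 alone of the 6 ring subunits passed, lower in PANC-1. It was at 96.1, 122.8 and 94.7 CPM in PANC-1 controls, against 208.3, 192.5 and 134.4 CPM in MIA PaCa-2 controls, with no overlap. With RBM3 siRNA it was at 102.8, 98.7 and 141.6 CPM in PANC-1, against 143.6, 151.6 and 199.7 CPM in MIA PaCa-2. The log2 difference was -0.77 (SE 0.21) under control siRNA (edgeR adjusted p 0.00962). Under RBM3 siRNA it was -0.53 (SE 0.21, edgeR adjusted p 0.0612), and -0.71 without PANC1_siRBM3 replicate 3 (adjusted p 0.0173). The other ring subunits had log2 differences between -0.33 (MCM7) and 0.54 (MCM5) under control siRNA. ORC6, a subunit of the origin recognition complex, was lower in PANC-1 under control siRNA, at -0.65 (SE 0.22, edgeR adjusted p 0.0295), and passed in 8 of 12 removals, while ORC1 was at -0.01 (SE 0.24).

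GINS4 was the only helicase activation gene called. The values above put it at 16.4 ± 1.62 CPM in PANC-1 controls and 51.2 ± 10.6 CPM in MIA PaCa-2 controls (SD, n = 3). Its log2 difference under control siRNA was -1.64 (SE 0.44) at an edgeR adjusted p of 0.00827. Under RBM3 siRNA it was -0.25 (SE 0.43, edgeR adjusted p 0.654), and -1.20 without PANC1_siRBM3 replicate 3 (adjusted p 0.00166). Its partners GINS1, GINS2 and GINS3 had log2 differences of 0.39, -0.72 and -0.73 under control siRNA and did not pass, with edgeR adjusted p-values of 0.146, 0.105 and 0.0714.

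The catalytic subunits of all 3 replicative polymerases were lower in PANC-1 under control siRNA. POLA1 had a log2 difference of -1.14 (SE 0.24), POLD1 of -1.02 (SE 0.33) and POLE of -0.47 (SE 0.17), with edgeR adjusted p-values of 0.00218, 0.0213 and 0.0374. POLD1 was at 34.1, 47.2 and 52.2 CPM in PANC-1 controls, against 80.7, 115.2 and 75.1 CPM in MIA PaCa-2 controls, and POLE at 82.0, 123.7 and 106.0 CPM, against 151.5, 148.1 and 132.2 CPM. These groups did not overlap. POLA1 passed in all 12 removals, POLD1 in 10 and POLE in 6. Under RBM3 siRNA POLA1 was at -0.69 (SE 0.24, edgeR adjusted p 0.0363), and at -0.98 without PANC1_siRBM3 replicate 3 (edgeR adjusted p 0.00414). It passed in 6 of 12 removals under RBM3 siRNA. There POLD1, at 47.3, 32.4 and 68.6 CPM in PANC-1 against 50.9, 90.1 and 119.0 CPM in MIA PaCa-2, was at -0.81 (SE 0.33, edgeR adjusted p 0.0627), and at -1.12 without PANC1_siRBM3 replicate 3 (adjusted p 0.0126). POLE was at -0.28 (SE 0.17) there and did not pass (edgeR adjusted p 0.197), also not without that library, at -0.38 (adjusted p 0.118). PRIM1 was at 0.46 (SE 0.28) under control siRNA and did not pass.

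RFC3 was the member called among clamp and clamp loader, with 39.4 ± 0.924 CPM in PANC-1 controls and 78.4 ± 23.9 CPM in MIA PaCa-2 controls (SD, n = 3). Its log2 difference under control siRNA was -0.99 (SE 0.23) at an edgeR adjusted p of 0.00299, and under RBM3 siRNA -0.49 (SE 0.22) with 0.0945, or -0.70 without PANC1_siRBM3 replicate 3 (edgeR adjusted p 0.0270). PCNA had all PANC-1 control libraries above all MIA PaCa-2 controls, at a log2 difference of 0.41 (SE 0.23) that did not pass (edgeR adjusted p 0.160). RFC2, RFC4 and RFC5 were at -0.20, 0.37 and -0.24. CHAF1B was lower in PANC-1 at -0.75 (SE 0.27, edgeR adjusted p 0.0353) and passed in 7 of 12 removals, while its partner CHAF1A was at 0.04 (SE 0.23). Under RBM3 siRNA CHAF1B was at -0.44 and did not pass, and at -0.73 without PANC1_siRBM3 replicate 3 (edgeR adjusted p 0.0358). TYMS, TK1 and LIG1 did not pass under control siRNA, with log2 differences of -0.12, 0.14 and -0.34.

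**Figure D4:**
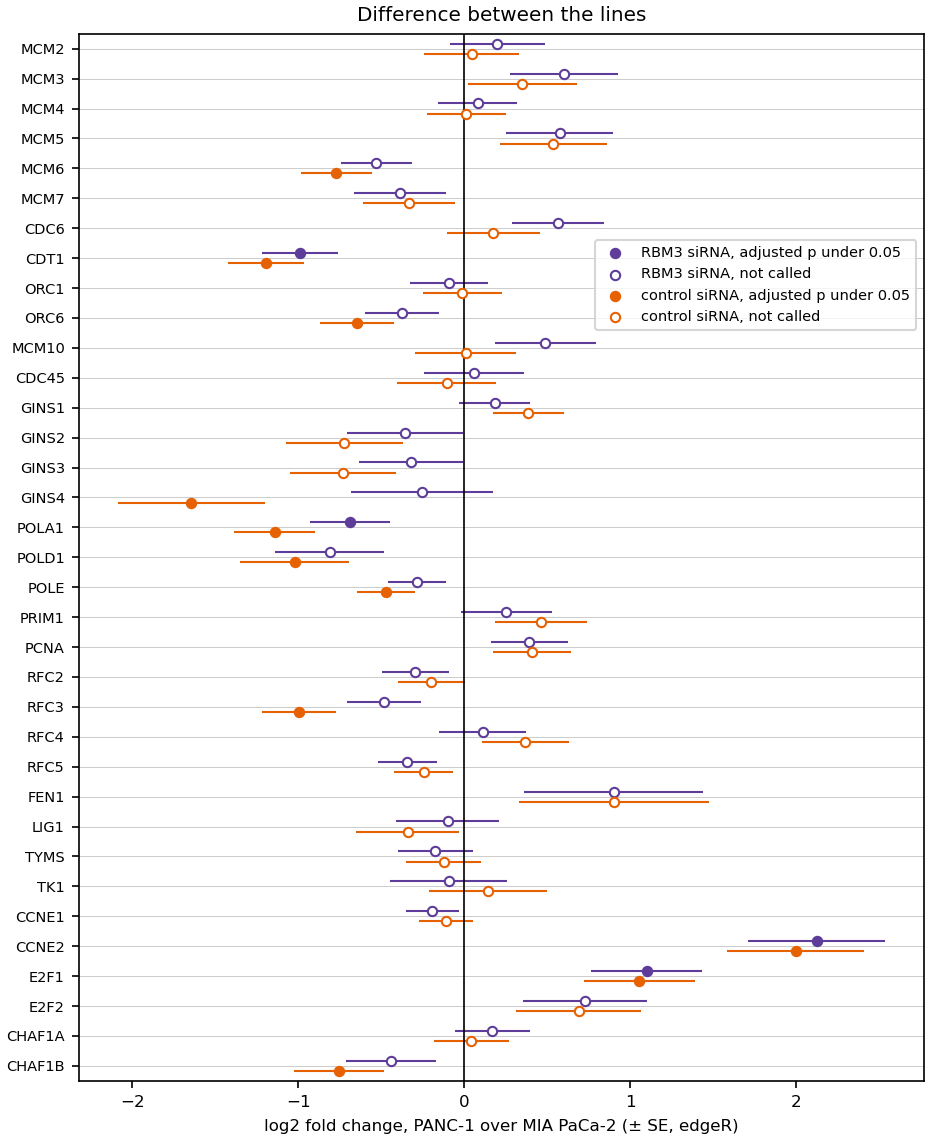
Log2 fold change of each of the 35 members in PANC-1 over MIA PaCa-2 (x axis) under RBM3 siRNA (purple, upper point of each pair) and control siRNA (orange, lower point), with bars of ± 1 approximate SE from edgeR (n = 3 libraries a group), filled where the adjusted p was under 0.05. Filled points are 4 under RBM3 siRNA and 11 under control siRNA, with CCNE2 farthest right and GINS4 under control siRNA farthest left.

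**Figure D5:**
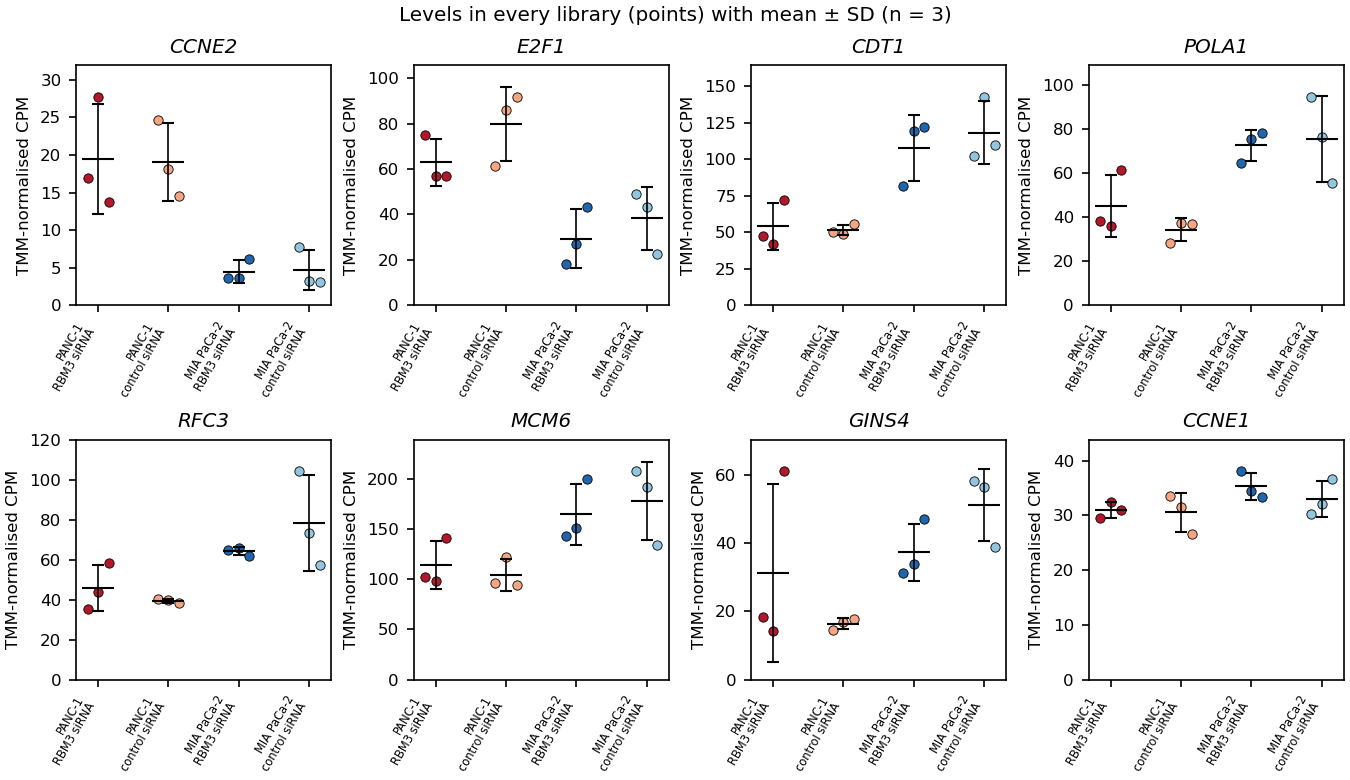
TMM-normalised CPM (y axis, from 0) in every library (points) with mean ± SD (bars, n = 3) for 8 members in the 4 groups. By group means CCNE2 and E2F1 are higher in PANC-1, and CDT1, POLA1, RFC3 and MCM6 lower. GINS4 is lower except in PANC-1 siRNA replicate 3 at 61.2 CPM. That library also lies above MIA PaCa-2 control replicate 4 for POLA1, RFC3 and MCM6. CCNE1 lies between 26.6 and 38.1 CPM throughout.

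In further genes of the pathways the share called was read against all genes. Under control siRNA, where 50.8% of all genes were called, 23 of 44 further replication genes were called (52.3%), 15 higher and 8 lower in PANC-1, and 11 of 18 further G1/S genes (61.1%), 5 higher and 6 lower. Under RBM3 siRNA, where 43.6% of all genes were called, these were 17 (38.6%, 13 higher and 4 lower) and 11 (61.1%, 5 higher and 6 lower). CDKN1A was at 128.6, 71.9 and 59.5 CPM in PANC-1 controls, against 8.14, 1.24 and 2.02 CPM in MIA PaCa-2 controls, a log2 difference of 4.43 (SE 0.64) at an edgeR adjusted p of 1.63e-04. E2F7 was at 35.6, 26.1 and 29.7 CPM in PANC-1 controls, against 4.02, 2.42 and 1.26 CPM in MIA PaCa-2 controls, a log2 difference of 3.53 (SE 0.40) at an edgeR adjusted p of 2.77e-05. Both were higher in PANC-1 with no overlap between the lines, and under RBM3 siRNA the log2 difference was 4.85 (SE 0.66) for CDKN1A and 3.49 (SE 0.40) for E2F7, at edgeR adjusted p-values of 1.18e-04 and 3.05e-05. Without MIAPaCa2_control replicate 1 the control siRNA value of CDKN1A was 5.75 and that of E2F7 4.07.

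In the other direction RBL2 was at 29.4, 41.1 and 41.6 CPM in PANC-1 controls, against 139.2, 128.1 and 157.0 CPM in MIA PaCa-2 controls. Under RBM3 siRNA its log2 difference was -1.55 (SE 0.29) at an edgeR adjusted p of 0.00115, and -2.04 without PANC1_siRBM3 replicate 3. Under control siRNA it was -1.92 (SE 0.29) at an edgeR adjusted p of 2.18e-04. ORC5, a subunit of the origin recognition complex, was lower in PANC-1 at -1.04 (SE 0.18, edgeR adjusted p 4.99e-04), and PRIM2 was higher at 1.18 (SE 0.22) under RBM3 siRNA (edgeR adjusted p 0.00138), where PRIM1 was at 0.26 (SE 0.28). Of the 16 mitosis genes 4 were called under control siRNA (25.0%, against 50.8% of all genes), 2 in each direction, and 5 under RBM3 siRNA (31.2%, against 43.6%), 1 higher and 4 lower in PANC-1.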

How the data were processed

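Libraries were made with Illumina TruSeq v2 kits and sequenced paired-end, 75 bp a read, per the labels' protocols. The authors deposited raw read counts per Ensembl gene in 1 table of 12 libraries. STAR 2.5.2a, Picard, featureCounts and Subread, with build hg19/GRCh37, are named per the submitters' processing notes. The sources used here do not give the annotation release, strand setting or treatment of duplicates. Without strand, reads of antisense genes cannot be told apart.

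A gene name table matched 52181 of 63677 rows and gave 39699 a symbol. The members and lists were chosen with earlier results of these data known. Counts were fitted with edgeR 4.0.16 in R 4.3.3 (TMM, filterByExpr with a minimum count of 10, quasi-likelihood test, 8 residual degrees of freedom). Benjamini-Hochberg adjustment ran over all 17862 genes, with a threshold of 0.05. A standard error is the log2 fold change over the root of F, so intervals are approximate. For each comparison, the 6 members and 4 other listed genes with the smallest p were named, beside RBM3. The code was tried on counts simulated from the fit's own spread, which cannot show how the fit behaves on these libraries. DESeq2 1.42.0 and limma 3.58.1 (voom) were alternatives, as were other scalings, filters, a replicate block, log2 total count as a covariate, each line alone and leaving out each library. DESeq2 without PANC1_siRBM3 replicate 3 was added after seeing the data.

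Total counts ran from 14217185 to 39652502, where 3 counts, the upper limit for a gene at 0, equal 0.0714 to 0.208 CPM. Such limits cover counting error only. No libraries were copies, since the chi-square per degree of freedom between replicates was 10.6 or more. Lengths and overlaps came from GENCODE v29 (GRCh38) and promoters from RefSeq (GRCh38.p14), and no coordinates of the counted build are given.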

Additional observations from a re-analysis of the deposited data

How the results depend on the processing

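No called result changed direction under an alternative that was run. The 0 members called for RBM3 siRNA in PANC-1, in MIA PaCa-2, for their mean and for their difference were 0 under every alternative. Under control siRNA the count of members that differed between the lines lay between 9 and 11 with all libraries, and between 7 and 11 when 1 library was left out. Under RBM3 siRNA it was 4, 8 with the replicate block (4 higher and 4 lower), and 9 with DESeq2 without PANC1_siRBM3 replicate 3 (2 higher and 7 lower, chosen after seeing the data). It lay between 2 and 9 when 1 library was left out, 9 being without PANC1_siRBM3 replicate 3. The cause was not tested. The median member log2 difference of the responses was 0.13 and ran between -0.045 (without MIAPaCa2_control replicate 1) and 0.42 (without MIAPaCa2_siRBM3 replicate 5) when 1 library was left out. Of single genes, 48 values were no longer past the threshold under an alternative, 11 came past it and 1344 kept their side. Replicate numbers 1 and 2 occur in both groups of each line. The correlation of deviations of same-numbered libraries was -0.40 and -0.33 in PANC-1 and 0.01 and -0.05 in MIA PaCa-2. Differently numbered pairs ran from -0.41 to 0.56 in PANC-1 and from -0.26 to 0.24 in MIA PaCa-2. So few pairs cannot show whether same-numbered libraries were handled together, and the main fit used no pairing. The replicate block moved no other count by over 1.5 times. Depth limits FEN1, with at most 32 counts in a library.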
